A study of Equus caballus with 17 samples.

Results

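The 7 microRNAs described here are eca-miR-122, eca-miR-124, eca-miR-9a, eca-miR-212, eca-miR-205, eca-miR-216b and eca-miR-190b of the horse. They are 7 of the 274 annotated mature miRNAs in the deposited small RNA table. They were chosen by measured values: the rule names miRNAs known from liver, neurons, epithelium or pancreas that stood higher in sperm than in adult testis in this same table. The rule set no numerical threshold, so there are no values just inside or outside one. Their level in Sperm over Adult is therefore a description with no test, and tests are given only between the younger testis stages and for other miRNAs.

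A miRNA is a short RNA that is cut from a hairpin precursor, is loaded into an Argonaute protein and guides it to messenger RNAs that pair with the miRNA's seed. Several miRNAs are made almost wholly in 1 kind of tissue. In mammals miR-122 is the dominant miRNA of hepatocytes, miR-124 and miR-9 are hallmarks of neurons and their progenitors, miR-212 is made beside miR-132 from a transcript induced by CREB in neurons, miR-205 belongs to stratified and glandular epithelium, and miR-216b lies in a cluster best known from the acinar pancreas. The miR-190 family has a member in an intron of the talin gene TLN2 and another, miR-190b, in the tropomyosin gene TPM3. Maturing sperm lose most of their cytoplasm and stop transcribing, and their small RNA is known to differ from that of the testis.

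The series holds 17 horse libraries of small RNA over 5 labelled stages. The groups are Infant testis (n = 3), Pre-puber testis (n = 3), Puber testis (n = 3), Adult testis (n = 4) and Sperm (n = 4). The labels give no breed, age, treatment or genotype, and leave it unsaid whether replicates came from different animals. The p-values below therefore speak of the spread among these libraries, which may in part be technical. Infant 31a and 31b share a title number, as do Pre-puber 3a and 3b, and whether a pair is from 1 animal is not stated. Testis libraries are labelled as the tissue and not as sorted cells, in which fewer cells of a type and less RNA per cell cannot be told apart.

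A library held between 1.48 and 13.1 M (mega) annotated counts, with a mean of 1.80 M in Sperm and 3.60 M in Adult. As a check of the labelled sources, the summed level of 3 stromal and smooth muscle miRNAs was 45.1 to 115 CPM in Sperm, against 12356 to 17835 CPM in Adult. Here CPM are annotated miRNA counts scaled per mega count after TMM over all 17 libraries. Sperm libraries were dominated by miR-191a, which took 37.8%, 15.6%, 48.6% and 51.7% of annotated counts in Sperm 1, 2, 3 and 4, against 0.715 to 1.58% in Adult. Sperm 2 stood apart by this low share, and Pre-puber 14 stood apart by its markers of meiotic and later germ cells, whose sum ranged from 41.1 to 2607 CPM in Pre-puber with Pre-puber 14 the highest.

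In Sperm, all 7 miRNAs stood higher in each of the 4 libraries than in any Adult library, and than in any of the 13 testis libraries. Over all miRNAs that passed the filter on low counts, 48 of 160 (30%) stood higher in every Sperm library than in every Adult library, and 36 of 184 (19.6%) stood higher in every Sperm library than in all testis libraries. Since the members were picked for that direction, nothing is read from their count. Together they made up 1.24%, 1.23%, 1.59% and 1.32% of annotated counts in Sperm 1, 2, 3 and 4, against 0.0555 to 0.0657% in Adult and 0.00872 to 0.0123% in Infant. These shares use no scaling, and their exact (Clopper-Pearson) 95% binomial intervals, which cover counting error only, reached down to 1.21% in Sperm and up to 0.0692% in Adult. Most of the Sperm share was 1 miRNA: miR-122 held 87.0%, 80.9%, 86.8% and 89.6% of the members' counts in Sperm 1 to 4, against 4.54 to 12.3% in Adult.

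**Figure D1:**
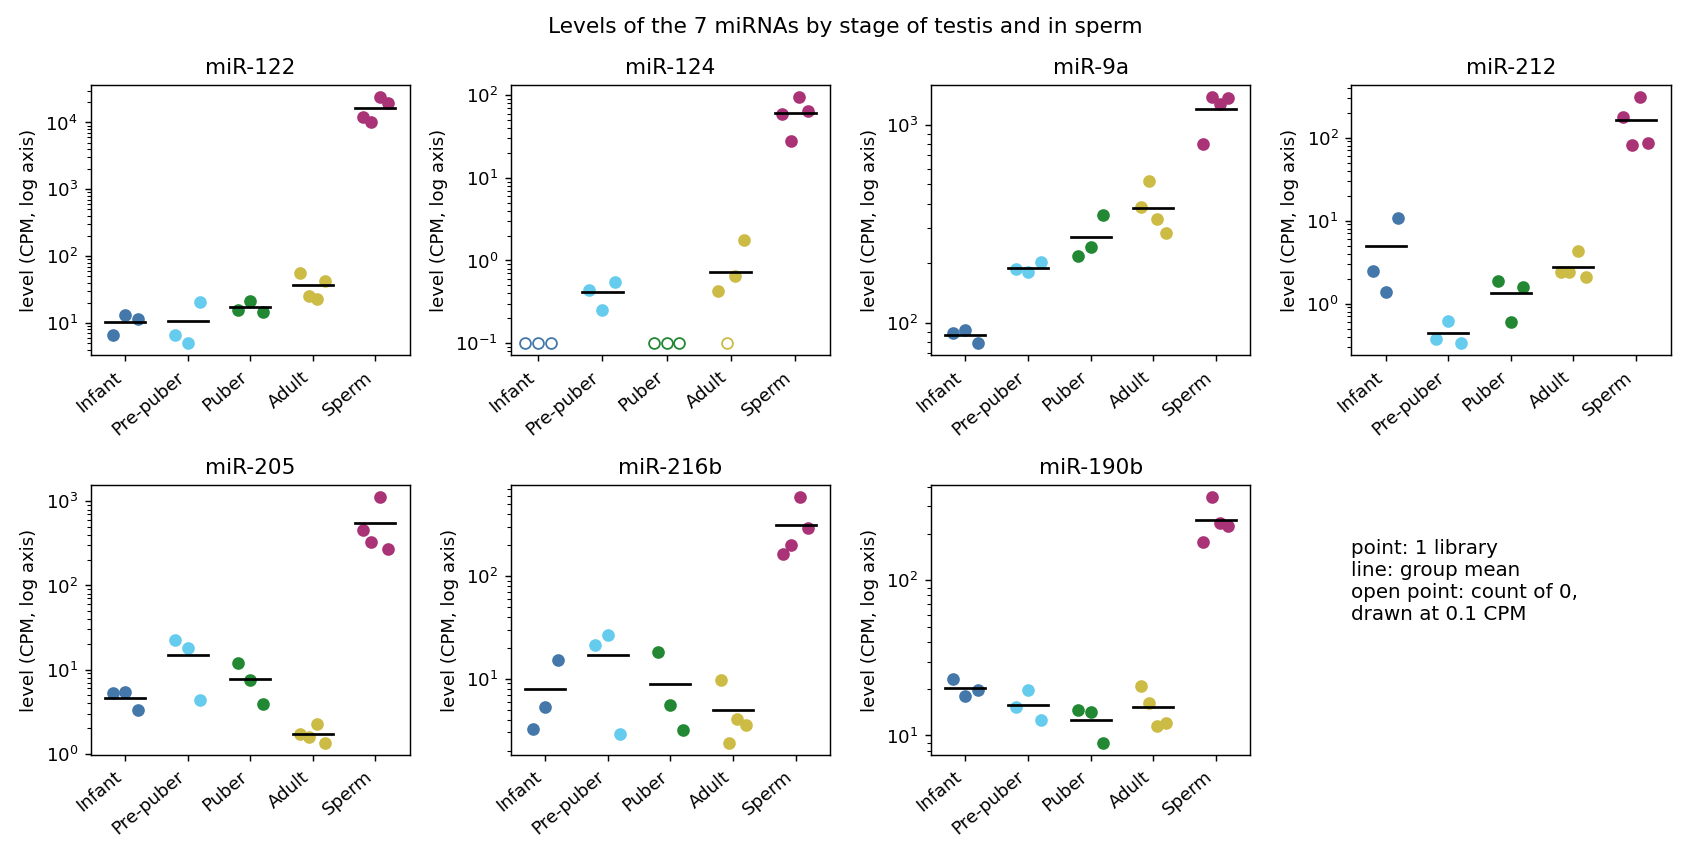
Level of each of the 7 miRNAs in TMM-scaled CPM (log axis) by group, where a point is 1 library, a line is the group mean and an open point is a count of 0. Every Sperm point lies above every testis point in all 7 panels, with the narrowest gap for miR-9a, while the order of the testis stages differs between panels.

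The liver miRNA miR-122 had the highest level and the widest gap of the set. Its level was 12247, 10006, 23862 and 19880 CPM in Sperm 1, 2, 3 and 4 (18462 to 24452 counts each), against 55.4, 25.7, 23.1 and 42.8 CPM in Adult 13, 20, 33 and 4. The means were 16499 ± 6478 CPM in Sperm and 36.8 ± 15.2 CPM in Adult (SD, n = 4 each), a ratio of 449, and the lowest Sperm library was 180 times the highest testis library. In the younger stages miR-122 had 6.69, 13.3 and 11.5 CPM in Infant 31a, 31b and 30. Pre-puber 3a, 3b and 14 had 6.51, 4.99 and 20.8 CPM, and Puber 10, 11 and 19 had 15.6, 21.0 and 14.6 CPM. The Adult libraries lay above every Puber, Pre-puber and Infant library, and Pre-puber 14 stood above the other Pre-puber libraries.

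By rank, miR-122 was the 20th, 18th, 11th and 13th most abundant annotated miRNA in Sperm 1, 2, 3 and 4. In Adult 13, 20, 33 and 4 it was 110th, 120th, 128th and 111th. In the RefSeq annotation its gene lies in the long non-coding RNA LOC138925426, and the nearest protein-coding genes are ALPK2 and NEDD4L.

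Of the neuronal miRNAs, miR-124 had few or no counts in any testis library. It had 59.1, 27.9, 94.4 and 64.6 CPM in Sperm 1, 2, 3 and 4 (118, 53, 81 and 60 counts), against 0.433, 0, 0.656 and 1.79 CPM in Adult 13, 20, 33 and 4 (2, 0, 5 and 12 counts). The means were 61.5 ± 27.3 CPM in Sperm and 0.720 ± 0.763 CPM in Adult (SD, n = 4 each), a ratio of 85.5. On the log2 scale this is 6.42, and 7.40 without Adult 4, the library with most of the Adult counts. No read was counted in the 3 Infant or the 3 Puber libraries, where a limit of 3 counts over the group is 0.126 CPM in Infant and 0.186 CPM in Puber. The Sperm mean was 487 times this limit in Infant and 331 times it in Puber, beside a measured ratio of 149 over Pre-puber. These are not firm minimums. The upper 95% counting limits were higher, at 0.155 CPM in Infant and 0.229 CPM in Puber, and the spread among Sperm libraries is left out. Pre-puber 3a, 3b and 14 had 7, 2 and 5 counts. The deposited table lists miR-124 under the precursor eca-mir-124-2, whose RefSeq gene, MIR124-2, has BHLHE22 and CYP7B1 as its nearest protein-coding genes. That listing does not show that the reads came from this gene alone.

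The other neural hallmark, miR-9a, had the highest testis level of the 7 members and the narrowest gap to Sperm. It had 797, 1377, 1280 and 1372 CPM in Sperm 1, 2, 3 and 4, against 386, 518, 333 and 283 CPM in Adult 13, 20, 33 and 4. The ratio of the means, 1207 ± 277 CPM in Sperm over 380 ± 101 CPM in Adult (SD, n = 4 each), was 3.17, and the lowest Sperm library was 1.54 times the highest testis library, Adult 20. Infant 31a, 31b and 30 had 88.4, 91.9 and 78.8 CPM. Pre-puber 3a, 3b and 14 had 186, 179 and 203 CPM, and Puber 10, 11 and 19 had 216, 242 and 351 CPM. The Infant, Pre-puber and Puber libraries did not overlap, each stage lying above the one before it, whereas Adult overlapped Puber. The deposited table lists miR-9a under 2 precursors, whose genes lie in MIR9-1HG and in the long non-coding RNA LOC138917339 near MEF2C, and the entries hold 26809 and 26806 counts over the libraries, so the locus of origin cannot be told.

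For miR-212, the Sperm libraries had 176, 80.6, 307 and 86.1 CPM in Sperm 1, 2, 3 and 4, against 2.38, 2.37, 4.33 and 2.09 CPM in Adult 13, 20, 33 and 4. The means were 162 ± 106 CPM in Sperm and 2.79 ± 1.03 CPM in Adult (SD, n = 4 each), a ratio of 58.1. Sperm 1 and 3 were the high libraries and Sperm 2 and 4 the low ones. Among the younger stages, Infant 31a, 31b and 30 had 2.49, 1.36 and 10.8 CPM, so that 1 Infant library held most of the group's counts. Pre-puber 3a, 3b and 14 had 0.372, 0.624 and 0.333 CPM (6, 5 and 3 counts), and Puber 10, 11 and 19 had 1.85, 0.595 and 1.58 CPM (10, 3 and 9 counts). Adult lay above Puber and Pre-puber in every library and within the range of Infant. RefSeq places the miR-212 gene beside MIR132, and miR-132 itself was not analysed here.

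The epithelial miRNA miR-205 had 455, 330, 1128 and 275 CPM in Sperm 1, 2, 3 and 4, against 1.73, 1.58, 2.23 and 1.34 CPM in Adult 13, 20, 33 and 4. The means were 547 ± 394 CPM in Sperm and 1.72 ± 0.376 CPM in Adult (SD, n = 4 each), a ratio of 317. On the log2 scale this is 8.31, and 7.68 without Sperm 3, its highest library. In testis its Adult libraries were the lowest, where those of miR-122 were the highest. Infant 31a, 31b and 30 had 5.29, 5.35 and 3.28 CPM. Pre-puber 3a, 3b and 14 had 22.3, 17.8 and 4.33 CPM, and Puber 10, 11 and 19 had 11.9, 7.54 and 3.86 CPM. Every Adult library lay below every library of the 3 younger stages, and the Adult mean was 0.222 of Puber, 0.116 of Pre-puber and 0.371 of Infant. Adult counts were 4 to 17 per library. Its gene lies in the long non-coding RNA LOC138924036, near CAMK1G and the laminin gene LAMB3.

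The pancreatic miRNA miR-216b had 165, 202, 585 and 295 CPM in Sperm 1, 2, 3 and 4, against 9.75, 2.37, 4.07 and 3.58 CPM in Adult 13, 20, 33 and 4. The means were 312 ± 190 CPM in Sperm and 4.94 ± 3.28 CPM in Adult (SD, n = 4 each), a ratio of 63.1. Within a testis stage its libraries were far apart. Infant 31a, 31b and 30 had 3.27, 5.35 and 15.4 CPM. Pre-puber 3a, 3b and 14 had 21.5, 26.5 and 2.89 CPM, and Puber 10, 11 and 19 had 18.2, 5.56 and 3.16 CPM. All 4 testis stages overlapped, and Pre-puber 14 was the low Pre-puber library for both miR-205 and miR-216b.

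The last member, miR-190b, was the steadiest in testis. It had 178, 345, 236 and 225 CPM in Sperm 1, 2, 3 and 4, against 20.8, 16.2, 11.6 and 12.1 CPM in Adult 13, 20, 33 and 4. The means were 246 ± 70.7 CPM in Sperm and 15.2 ± 4.30 CPM in Adult (SD, n = 4 each), a ratio of 16.2. Infant 31a, 31b and 30 had 23.2, 18.0 and 19.6 CPM, Pre-puber 3a, 3b and 14 had 15.2, 19.7 and 12.5 CPM, and Puber 10, 11 and 19 had 14.6, 14.1 and 8.96 CPM. The group means were 20.3 ± 2.68 CPM in Infant, 15.8 ± 3.63 CPM in Pre-puber and 12.6 ± 3.13 CPM in Puber (SD, n = 3 each), and its highest testis library was only 2.59 times its lowest. Adult overlapped each of the younger stages, Pre-puber overlapped both Infant and Puber, and every Puber library lay below every Infant library. RefSeq places its gene over TPM3. Sperm 2, the library with the least miR-191a, was its highest library, and also narrowly that of miR-9a, whereas Sperm 3 was the highest for the other 5 members.

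**Figure D2:**
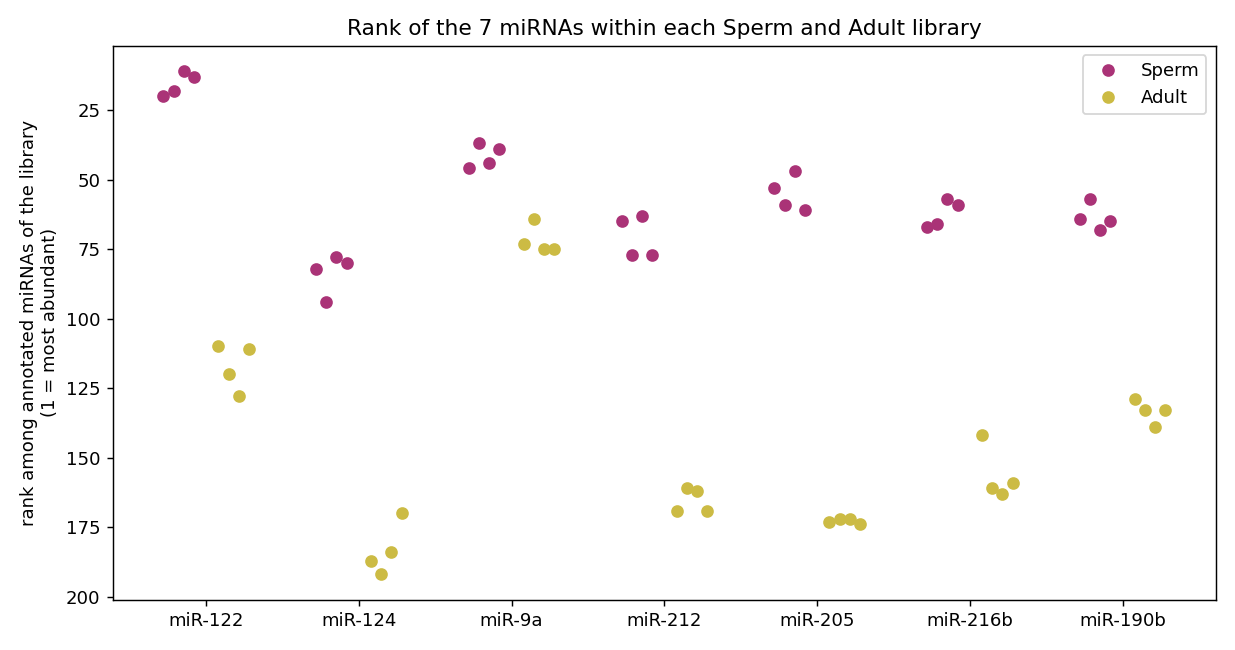
Rank of each of the 7 miRNAs among the annotated miRNAs of its own library (1 is the most abundant, at the top), with a point for each Sperm library and, to its right, each Adult library. Ranks need no scaling between libraries: miR-122 lies at 11 to 20 in Sperm against 110 to 128 in Adult, and miR-9a has the smallest step.

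By mean level the order within Sperm was miR-122, miR-9a, miR-205, miR-216b, miR-190b, miR-212 and miR-124, at ranks 14, 41, 54, 62, 66, 70 and 83 among annotated miRNAs. From miR-205 down to miR-124, the range of each neighbour in this order over the 4 libraries overlapped that of the next. Within every Sperm library, miR-122 lay above all others, miR-9a above the remaining 5, and miR-212 above miR-124. From miR-205 down to miR-212 the order changed between Sperm libraries. In Adult the order was miR-9a, miR-122, miR-190b, miR-216b, miR-212, miR-205 and miR-124, at ranks 69, 118, 134, 156, 169, 174 and 182. There the ranges of miR-9a, miR-122 and miR-190b did not overlap each other or the rest, and from miR-216b down each range overlapped the next. Within every Adult library miR-212 nonetheless lay above miR-205, at 6 to 33 counts against 4 to 17. These orders compare different miRNAs, and ligation and PCR can favour some sequences over others.

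The size of the Sperm over Adult ratio depended on the scaling. Under TMM over all 17 libraries the median log2 ratio over all miRNAs was −0.29. It was 0.44 with TMM over the Sperm and Adult libraries alone and −1.21 with the total of annotated counts only, or −0.58 when miR-191a was left out of that total. The log2 ratio of miR-122 ran between 7.78 and 9.43 over the scalings and left-out libraries tried, and that of miR-9a between 0.77 and 2.37. All 7 members stayed higher in every Sperm library than in every Adult library under each of the 14 alternatives.

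**Figure D3:**
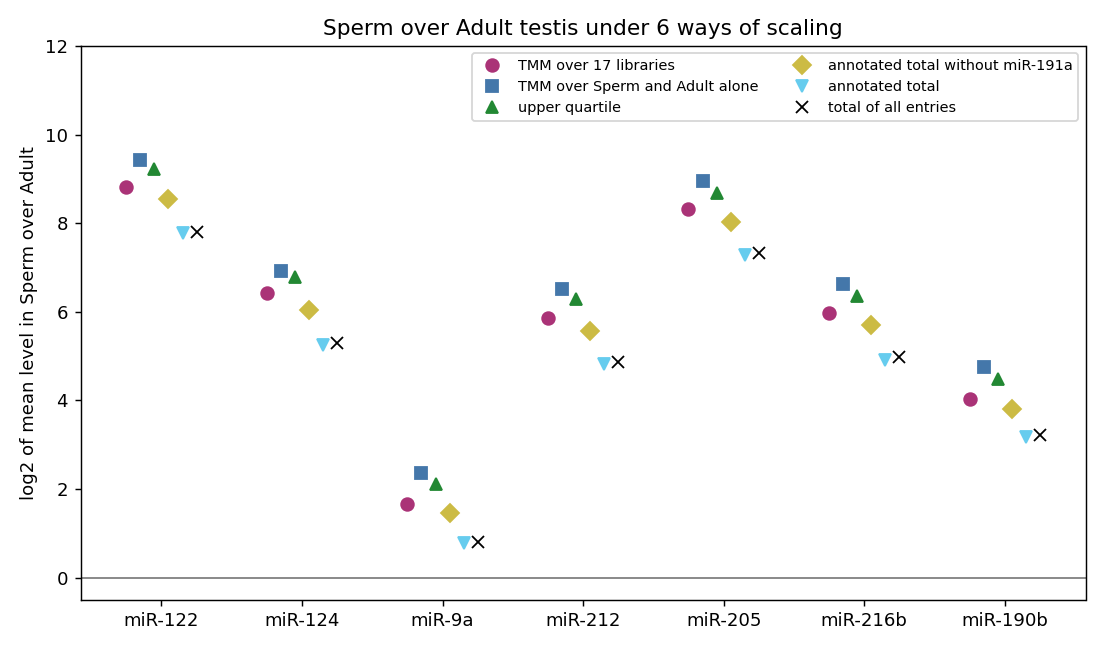
Log2 ratio of the mean level in Sperm over Adult for each of the 7 miRNAs (horizontal axis) under 6 ways of scaling libraries (symbols), with 0 drawn as a line. The 2 scalings by library totals give the lowest ratios and TMM over Sperm and Adult alone the highest. All points lie above 0, and miR-9a comes nearest to it, at 0.77 with the annotated total.

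A family relative served as a comparison free of scaling for miR-190b. The intronic miR-190a, made within TLN2, had 2, 10, 1 and 0 counts in Sperm 1, 2, 3 and 4, against 44, 38, 159 and 43 counts in Adult 13, 20, 33 and 4. Its mean was 1.86 ± 2.33 CPM in Sperm and 13.0 ± 6.37 CPM in Adult (SD, n = 4 each), and it was lower in Sperm by edgeR's quasi-likelihood test (log2 fold change −2.58 ± 0.65 SE, Benjamini-Hochberg adjusted p = 0.00120, and −4.00 without Sperm 2). In that fit 136 of 160 miRNAs (85%) passed an adjusted p of 0.05. Of the counts of miR-190a and miR-190b together, miR-190b was 99.4%, 98.5%, 99.5% and 100% in Sperm 1 to 4, against 68.6%, 51.9%, 35.6% and 65.3% in Adult 13, 20, 33 and 4. In the younger stages it was 72.4% of the summed counts in Infant, 57.3% in Pre-puber and 44.2% in Puber. The exact 95% binomial intervals, for counting error only, reached down to 97.3% in Sperm and up to 76.1% in Adult. The Sperm and Adult shares are a description, since the rule chose miR-190b on these groups. The 2 mature miRNAs are close in sequence, and how reads were divided between them is not given in the sources used here.

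For miR-216b the relatives are its neighbours miR-217 and miR-216a, which RefSeq places in the same long non-coding RNA, LOC138917691. Like miR-216b, miR-217 was higher in Sperm, with 47.6, 70.0, 72.3 and 28.0 CPM in Sperm 1, 2, 3 and 4, against 8.88, 5.94, 5.91 and 9.99 CPM in Adult 13, 20, 33 and 4 (log2 fold change 2.82 ± 0.49 SE, edgeR adjusted p = 2.96e-05). In testis, miR-217 averaged 0.293 CPM in Infant, 1.60 CPM in Pre-puber, 4.65 CPM in Puber and 7.68 CPM in Adult. It was called higher in Pre-puber against Infant (log2 fold change 2.36 ± 0.73 SE, edgeR adjusted p = 0.0296) and in Puber against Infant (3.90 ± 0.74 SE, edgeR adjusted p = 0.0011), while miR-216b was called in neither. Whether the neighbours differ in these changes was not tested.

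As a share of the counts of both, miR-216b was 77.6%, 74.2%, 89.0% and 91.3% in Sperm 1 to 4, against 52.3%, 28.6%, 40.8% and 26.4% in Adult 13, 20, 33 and 4, a description, since the rule chose miR-216b on these groups. The exact 95% binomial intervals, for counting error only, reached down to 70.2% in Sperm and up to 63.2% in Adult. In the younger stages its share of the summed counts was 96.6% in Infant, 92.1% in Pre-puber and 66.1% in Puber. Another of the cluster, miR-216a, had at most 14 counts in any group and was not tested. RefSeq also places a gene MIR1461 over that of miR-216b, and MIR1461 is not described here.

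**Figure D4:**
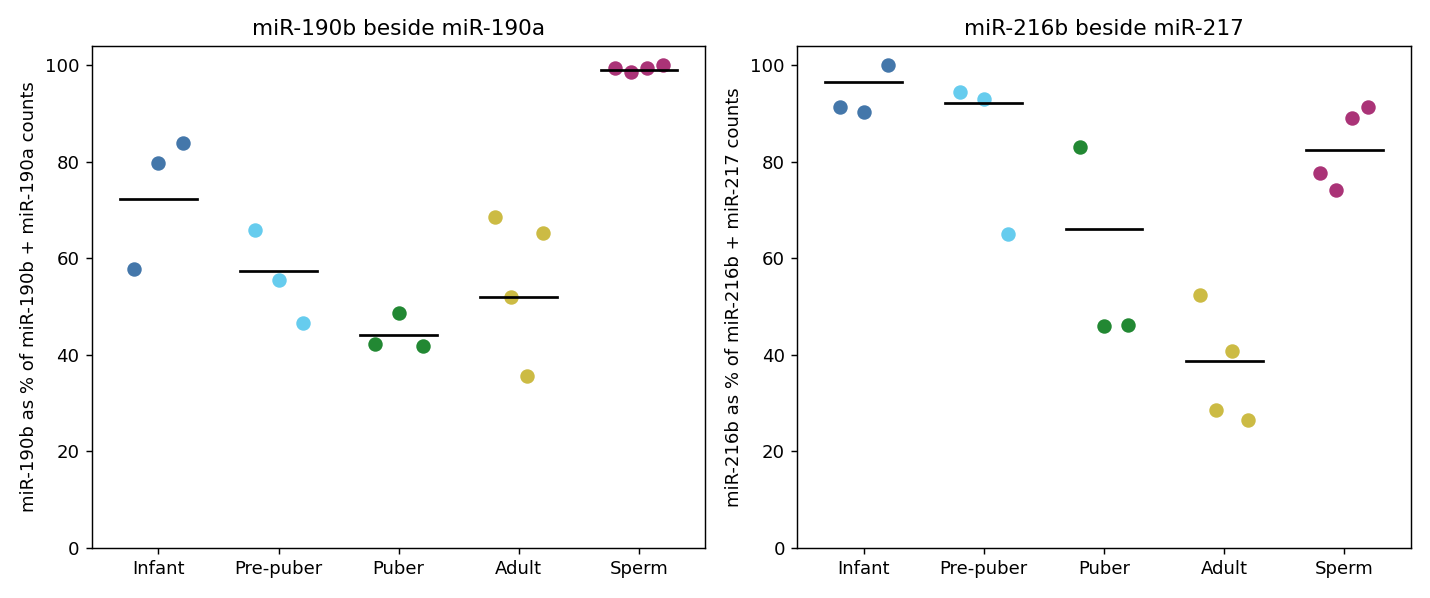
Share of miR-190b in the counts of miR-190b and miR-190a (left) and of miR-216b in the counts of miR-216b and miR-217 (right), in percent, where a point is 1 library and a line is the share over the group's summed counts. In Sperm miR-190b is 98.5 to 100% of its pair, and miR-216b is 74.2 to 91.3% of its pair against 26.4 to 52.3% in Adult.

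The younger stages allow tests on values that did not choose the members. Between Pre-puber and Infant, miR-9a was higher and miR-212 lower, and the other 4 members tested were not called. miR-9a had a log2 fold change of 1.13 ± 0.31 SE (edgeR adjusted p = 0.0149). Without Infant 30 the log2 fold change was 1.07 and the call was lost (edgeR adjusted p = 0.0532), as it also was with upper-quartile scaling, with predicted hairpins in the fit and with libraries that share a title number summed. miR-212 had a log2 fold change of −3.44 ± 0.81 SE (edgeR adjusted p = 0.00859), and −2.09 without Infant 30 (edgeR adjusted p = 0.0436), the library that held most of the Infant counts. Infant 30 also had the most of the blood cell miRNA miR-486-5p, at 4699 CPM against 210 and 310 CPM in Infant 31a and 31b. For miR-451 it had 614 CPM against 97.6 and 57.1 CPM, but for miR-150 the least of its group, 189 CPM. The part of blood cells in the miR-212 difference was not tested. The 2 members called stand beside 43 of 181 miRNAs (23.8%) called in that comparison. miR-124 did not pass the filter on low counts in testis, so 6 of the 7 were tested.

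The median log2 fold change was 0.55 over the 6 members and 0.06 over all 181 miRNAs. miR-205 missed the threshold (log2 fold change 1.67 ± 0.59 SE, edgeR adjusted p = 0.0555) and passed it without Pre-puber 14 (2.11, edgeR adjusted p = 0.00944). For miR-216b the log2 fold change was 1.08 ± 0.86 SE, for miR-190b −0.36 ± 0.37 SE and for miR-122 0.03 ± 0.55 SE, with edgeR adjusted p of 0.405, 0.514 and 0.967. Pre-puber 14 also had the highest germ cell markers of its group, and their part in these differences was not tested.

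Between Puber and Pre-puber, none of the 6 members was called by edgeR, none had an unadjusted p under 0.05, and DESeq2 called 0. Over all miRNAs 8 of 181 (4.42%) were called. The log2 fold changes of the members ran between −0.94 for miR-205 and 1.60 for miR-212. Without Pre-puber 14, miR-122 had a log2 fold change of 1.56 in place of 0.67 (edgeR adjusted p = 0.0552) in this comparison, and of −0.86 in place of 0.03 in Pre-puber against Infant (edgeR adjusted p = 0.295).

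Over the whole span, Puber against Infant, 1 of the 6 members was called, against 66 of 181 miRNAs (36.5%). This was miR-9a, with 216, 242 and 351 CPM in Puber and 88.4, 91.9 and 78.8 CPM in Infant (log2 fold change 1.64 ± 0.31 SE, edgeR adjusted p = 0.00111), except that its direction turned when predicted hairpins entered the fit and its scaling (−0.82). miR-212 missed the threshold (−1.85 ± 0.76 SE, edgeR adjusted p = 0.0722) and was −0.50 without Infant 30 (edgeR adjusted p = 0.616). The remaining members had log2 fold changes of −0.69 for miR-190b, 0.16 for miR-216b, 0.70 for miR-122 and 0.74 for miR-205, with edgeR adjusted p of 0.172 to 0.912.

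Other tissue-restricted miRNAs, which are not among the 7 members, were compared as well. Their lists were drawn up with earlier results of these data known, so the counts below are no independent check of the members. Striated muscle, a tissue the rule does not name, entered with 1 matched name, miR-499-5p. Of 30 names listed for liver and gut, neurons, epithelium, pancreas and striated muscle, 11 were matched in the table, none of them on the epithelial list, and the others were not analysed here. Of the 9 that passed the filter, 6 were called higher and 3 lower in Sperm against Adult by edgeR, with a median log2 fold change of 1.31, against −0.52 over all 160 miRNAs, of which 61 were called higher and 75 lower. With TMM over the Sperm and Adult libraries alone, 6 companions were higher and 1 lower, beside 69 higher and 62 lower over all miRNAs. Scaling by annotated totals gave 4 higher and 3 lower companions, beside 36 higher and 86 lower over all miRNAs.

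All 3 of the liver and gut list were higher: miR-192 by a log2 fold change of 2.85 ± 0.44 SE, miR-194 by 2.93 ± 0.51 SE and miR-215 by 1.31 ± 0.49 SE (edgeR adjusted p of 7.19e-06, 2.96e-05 and 0.0188). The call of miR-215 was lost under scaling by totals, with predicted hairpins in the fit and without Adult 13, 33 or 4. The muscle miRNA miR-499-5p, made from a myosin intron, averaged 4741 ± 1044 CPM in Sperm and 135 ± 27.1 CPM in Adult (SD, n = 4 each), a log2 fold change of 5.13 ± 0.43 SE (edgeR adjusted p = 2.16e-09).

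The neural list was divided. miR-7 was higher (1.09 ± 0.39 SE, edgeR adjusted p = 0.0144), a call lost under scaling by totals, with predicted hairpins in the fit and without Adult 4. miR-138 was lower, at 0.777 ± 1.00 CPM in Sperm and 18.9 ± 5.79 CPM in Adult (SD, n = 4 each), a log2 fold change of −4.19 ± 0.65 SE (edgeR adjusted p = 7.91e-06), and −5.13 without Sperm 2. miR-218 and miR-383 were lower by −1.59 ± 0.50 SE and −1.36 ± 0.47 SE (edgeR adjusted p of 0.00711 and 0.0129), and both calls were lost with TMM over the Sperm and Adult libraries alone, and that of miR-383 also with upper-quartile scaling.

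In testis, 2 of 10 companions tested were called in Pre-puber against Infant, miR-138 and miR-217, both higher, beside 23.8% of all miRNAs. Puber against Pre-puber gave 2 of 10, miR-192 (log2 fold change 1.28, edgeR adjusted p = 0.0457) and miR-499-5p (1.85, edgeR adjusted p = 0.022), both higher, beside 4.42% of all miRNAs. Both calls were lost with libraries that share a title number summed, with the 2 groups alone in the fit, and without Pre-puber 3a, Pre-puber 3b, Puber 11 or Puber 19, where no miRNA was called. Puber against Infant gave 4 of 10, miR-138, miR-215, miR-217 and miR-499-5p, all higher, beside 36.5% of all miRNAs. The shares of companions called in Pre-puber and in Puber against Infant were thus near those of all miRNAs.

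Markers of other cells moved with Sperm against Adult in both directions. All 3 stromal markers were lower, miR-145 most of all (log2 fold change −9.38 ± 0.54 SE, edgeR adjusted p = 1.66e-11), as was the endothelial miR-126-5p (−3.68 ± 0.51 SE, edgeR adjusted p = 1.71e-06). The summed level of 5 blood cell miRNAs was 5101 to 8394 CPM in Sperm, against 1615 to 5269 CPM in Adult, with Adult 33 the highest. Adult 33 had 3024 CPM of miR-486-5p, against 593 to 716 CPM in the other Adult libraries. It had 973 CPM of miR-451, against 78.0 to 93.2 CPM, but narrowly the least miR-155, at 720 CPM. Of the 5 blood cell miRNAs, miR-155 and miR-451 were higher in Sperm (2.40 ± 0.37 SE and 1.90 ± 0.69 SE), miR-150 was lower (−1.55 ± 0.61 SE), and miR-142-5p and miR-486-5p were not called. All 3 germ cell markers, miR-34b-5p, miR-34c and miR-449a, were higher, and their sum was 89318 to 231632 CPM in Sperm, against 35049 to 52865 CPM in Adult. No listed marker was at 0 in every library of a group. The part of these cells in the levels of the 7 miRNAs was not tested.

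By profile over the 17 libraries, the nearest profiles of the members were in part members and in part other miRNAs. Likeness was the root mean square difference between centred log2(CPM + 1) values, where smaller is more alike. The values were centred but not brought to a common spread. The size of the rise into Sperm, a direction for which the rule chose the members, therefore enters each distance, and a large distance need not mean another order of the groups. The nearest profiles to miR-122 were miR-499-5p (1.62) and miR-191a (1.70). Nearest to miR-124 were miR-191a (0.475) and miR-212 (0.887), and nearest to miR-212 were miR-191a (0.860) and miR-124 (0.887). The pair miR-205 and miR-216b were each other's nearest profile (0.898), followed by miR-124 for miR-205 (1.16) and by miR-190b for miR-216b (1.05). Of the others, miR-9a was nearest to miR-1839 (0.611) and miR-93 (0.629), and miR-190b to miR-30d (0.607) and miR-30e (0.608). None of these is a member, and neither are miR-499-5p and miR-191a. The libraries share their depth and their scaling, and the pseudocount flattens the profile of low miRNAs such as miR-124, so these distances are descriptions only.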

How the data were processed

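Small RNA of 17 horse libraries was analysed from the deposited table. Per the labels' protocols, RNA was isolated with TRIzol, with a DNase step that was shorter for sperm than for testes, and libraries were made by adapter ligation, PCR and size selection. Trimmomatic (version not given) and EquCab3.0 are named in the submitters' processing notes, and for the aligner, counter and miRNA annotation no name was given in the sources used here. Whole reads are what the deposited count columns hold, for 1763 entries of which 302 are annotated mature miRNAs and 1461 predicted hairpins. The deposited RPM columns equal the count over the column total within 0.005 RPM and were used only for that check. Libraries numbered 4 exist in Adult and Sperm and their columns were told apart by prefix, an inference from the other columns.

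For each of 274 mature miRNAs the entry with the highest summed count was kept. Levels are CPM with TMM factors over all 17 libraries. These are relative and do not add up to a fixed total within a library. Tests used edgeR 4.0.16 (quasi-likelihood F test, filterByExpr by group, Benjamini-Hochberg over all miRNAs tested, called at an adjusted p under 0.05) in R 4.3.3, with the 13 testis libraries in 1 fit and the 8 Sperm and Adult libraries in another. The tests were also run on simulated counts. Those were drawn with the same scaled library sizes that the fit then used, so that run cannot check the scaling, and its outcome is not given here. The approximate SE was taken from the F statistic. DESeq2 1.42.0 was an alternative. Named were all 7 members, their cluster or family relatives, the 2 nearest profiles of each member, and marker list members called or most abundant. The members and lists were chosen with earlier results of these data known. Within groups, pairs of libraries differed far beyond sampling noise, so none was taken for a repeat deposit of another, which does not show that libraries come from separate animals. RefSeq neighbours come from the TB-T2T assembly, not the build of the files, so no coordinates are given. Mature sequences are not shown, and the limit for a count of 0 is 3 counts.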

Additional observations from a re-analysis of the deposited data

Results flagged for a closer look

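Within the groups of 4 libraries, 14 combinations of a miRNA with Adult or Sperm were examined for a library far from the other 3, and chance flags about 1 in 20. By TMM-scaled level, miR-9a was lowest in Sperm 1, at 797 CPM, against 1280 to 1377 CPM in the other Sperm libraries. This depends on the scaling, whose TMM factors were 0.883, 0.992, 0.579 and 0.595 in Sperm 1, 2, 3 and 4. The counts were 1592, 2616, 1098 and 1274, of 2.26, 1.91, 1.48 and 1.56 M annotated counts. As a share of annotated counts, Sperm 1 lay near Sperm 3 and 4, and Sperm 2 was the highest. miR-212 was highest in Adult 33, at 4.33 CPM, against 2.09 to 2.38 CPM in the other Adult libraries. This rests on 33 counts, with a 95% counting interval of 2.98 to 6.08 CPM that overlaps those of the other Adult libraries. Adult 33 also had the most of the blood cell miRNAs miR-486-5p and miR-451 in its group, whose part was not tested.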

How the results depend on the processing

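The 7 members stayed higher in every Sperm library than in every Adult library under all 14 alternatives, and 7 to 10 companions were called under the 15 alternatives, against 9. The count of members called in Pre-puber against Infant, 2, was 1 with upper-quartile scaling, with libraries that share a title number summed, or with the 2 groups alone in the fit, 3 with TMM of the testis libraries, totals, DESeq2 or all 17 libraries in the fit, and 1 to 3 with a library left out. With all 17 libraries the third was miR-124, and miR-205 was not called (edgeR adjusted p = 0.0568). There miR-124 passed the filter only through the Sperm libraries, on which the rule chose it, so nothing is read from that call. It had 7, 2 and 5 counts in Pre-puber 3a, 3b and 14, and 0 in each Infant library. In Puber against Pre-puber the count of members called was 0 except for 4 with predicted hairpins in the fit, and 0 with any library left out. In Puber against Infant, 1, it was 2 with upper-quartile scaling or summed libraries, 4 with predicted hairpins in the fit, and 1 to 2 with a library left out. Predicted hairpins in the fit moved the median log2 fold change of annotated miRNAs to −2.44 in Puber against Pre-puber and −2.41 in Puber against Infant. There miR-9a turned to −1.98 and −0.82. In Puber against Pre-puber, miR-122 and miR-212 turned to −1.38 and −0.81. In Puber against Infant, miR-122, miR-216b and miR-205 turned to −1.78, −2.43 and −1.57. The cause was not tested.

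Over all miRNAs, 43 were called in Pre-puber against Infant, and 29 with the 2 groups alone or libraries summed. In Puber against Pre-puber, 8 were called, with 2 under TMM of the testis libraries alone, 16 by DESeq2, 141 with predicted hairpins, 29 without Pre-puber 14, 1 without Puber 10, and 0 without Pre-puber 3a, Pre-puber 3b, Puber 11 or Puber 19 and with summed libraries or the 2 groups alone. In Puber against Infant, 66 were called, and 159 with predicted hairpins. Scaling by annotated totals gave 36 higher and 5 lower in Pre-puber against Infant, against 27 and 16, and 56 and 11 in Puber against Infant, against 41 and 25, where upper-quartile scaling gave 37 and 40. The call of miR-9a in Pre-puber against Infant had an edgeR adjusted p of 0.0657 with upper-quartile scaling, 0.0735 with predicted hairpins and 0.0786 with summed libraries, and that of miR-212 was lost with the 2 groups alone (edgeR adjusted p = 0.0514). miR-205 gained the call with TMM of the testis libraries (edgeR adjusted p = 0.0444), totals (0.0114), predicted hairpins (0.0399) and DESeq2 (0.0155).

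No paired analysis was possible because the groups do not share replicate numbers, apart from the number 4 in Adult and Sperm. Depth limits miR-124, miR-212 and miR-205 most: an Adult library held 0 to 12 counts of miR-124, 6 to 33 of miR-212 and 4 to 17 of miR-205.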
